A study of Homo sapiens with 30 samples.

Results

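The genes examined here were the 10 core genes of endoplasmic reticulum-associated degradation (ERAD) SEL1L, SYVN1, DERL1, DERL2, EDEM1, EDEM2, EDEM3, OS9, ERLEC1 and VCP. They were taken by gene symbol from a table of 16975 genes, and all 10 were in it. ERAD is the pathway by which a cell disposes of proteins that fail to fold in the endoplasmic reticulum (ER), the compartment in which secreted proteins are made. EDEM1, EDEM2 and EDEM3 trim mannose from the sugar chains of such proteins, and the lectins OS9 and ERLEC1 (also known as XTP3-B) read the trimmed chains. SEL1L is the adaptor that hands the protein to SYVN1 (HRD1), a ubiquitin ligase of the ER membrane. DERL1 and DERL2 are derlins, membrane proteins of the passage out of the ER, and VCP (p97) is the ATPase that pulls the protein into the cytosol for the proteasome. The lectin chaperones calnexin and calreticulin hold the same sugar-bearing proteins before they reach ERAD, and coagulation factor VIII is a large, heavily glycosylated client of both.

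The data are 30 libraries of 3' RNA-seq, a method that reads the end of each messenger RNA, from human embryonic kidney (HEK293) cells. The 10 groups of 3 libraries were the parental HEK line, HEK28, a derivative of it that secretes factor VIII, and 8 lines made from HEK28 by CRISPR, each aimed at 1 gene. The targets were CANX (calnexin), CALR (calreticulin), LMAN1 and MCFD2 (the 2 subunits of the cargo receptor for factor VIII), GABARAP, GABARAPL1 and GABARAPL2 (ATG8-family proteins of autophagy) and ATG7 (the enzyme that begins the attachment of these proteins to lipid). All 8 knockout lines therefore carry the factor VIII gene of HEK28 as well as their own edit. Cultures were untreated and were grown to about 70% confluency. The labels leave unstated whether a knockout line is 1 clone or a pool, and do not say that replicate libraries are separate cultures, so p-values measure only the spread between these libraries, which may be technical.

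Read totals in genes, worked out from the deposited values, ran from 135113 to 3596430 per library with a median of 559012. A transcript was counted as missing from a library if the mean of the knockouts predicted at least 10 reads and under 10% of them were found. In HEK28 replicates 1 and 2 this held for 2.74% and 3.18% of predicted transcripts, against 0.0524% in HEK28 replicate 3, 0.00899% to 0.630% in the 24 knockout libraries and 0.869% to 1.46% in the parental ones. The targeted gene was lower in its own knockout than in the other 7 for each of the 8 targets. The difference passed the test for 4 of them, the 2 chaperones and the 2 receptor subunits, and not for the other 4, the autophagy genes. F8 stood at 1.97 RPM (reads per 1000000 reads in genes) in the parental line, 757 in HEK28 and 1043 to 2148 in the knockouts. Of the HEK293 marker list 4 of 5 genes were in the table. NEFM and NEFL were listed at log2 levels of at least 13.2 and 9.95 in every library, with reads that were not resolved, VIM and PAX2 summed to 238 to 680 RPM per group, and SOX11 was not listed. Markers of other cell types were low, at 10.4 to 32.5 RPM for fibroblasts (1 of 5 listed, COL1A1), 2.56 to 11.9 for blood cells (2 of 4) and 0.821 to 8.28 for endothelium (1 of 3). Epithelial markers reached 50.8 to 175 RPM (3 of 4, mostly KRT8 and KRT18), and 0 of 3 hepatocyte markers were listed.

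Before the values, 2 promoters are shown, those of the most and the least variable of the 10 genes. RefSeq (GRCh38.p14) held a promoter for 9 of the 10, without DERL1. The 300 bases searched in each run from 250 before to 50 after the start, and the first 250 are printed, 5′ to 3′ on the strand of the gene. In SYVN1 (chr11:65134520-65134769, minus strand) the capitals mark CCACG, the part of the ER stress response element that ATF6 binds. In VCP (chr9:35072626-35072875, minus strand) they mark TGACGTGG, the UPR element.
SYVN1: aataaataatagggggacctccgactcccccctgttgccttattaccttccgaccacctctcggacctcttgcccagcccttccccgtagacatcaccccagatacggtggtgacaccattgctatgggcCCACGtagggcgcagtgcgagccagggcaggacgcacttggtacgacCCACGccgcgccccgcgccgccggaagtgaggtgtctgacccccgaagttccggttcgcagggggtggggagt
VCP: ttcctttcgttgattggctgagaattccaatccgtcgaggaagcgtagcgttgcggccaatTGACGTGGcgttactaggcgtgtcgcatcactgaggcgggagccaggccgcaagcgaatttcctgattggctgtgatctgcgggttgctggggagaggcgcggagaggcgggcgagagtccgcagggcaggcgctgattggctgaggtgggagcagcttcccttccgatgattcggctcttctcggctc
The 2 CCACG matches of SYVN1 begin 120 and 73 bases before the start, and the match of VCP begins 189 bases before it. Searched on both strands, CCACG was present in 7 of the 9 ERAD promoters (SEL1L, SYVN1, EDEM1, EDEM3, OS9, ERLEC1 and VCP) and in 38.1% of all 35116 promoters. CCAAT was present in 6 of the 9 (SEL1L, DERL2, EDEM1, EDEM3, OS9 and VCP) and in 34.6% of all. TGACGTGG, whose last 5 bases are the reverse complement of CCACG, was in the VCP promoter among the 9 and in 0.729% of all. The full ER stress response element, CCAAT and CCACG 9 bases apart, was in 0 of the 9 and in 0.0769% of all, HSPA5 among these. Its second form, ATTGG and CCACG 1 base apart, was in 0 of the 9 and in 0.0541% of all, HERPUD1 among these, and TGATGNAA, a site of ATF4 and its partners, was in 0 of the 9 and in 3.62%. A match is a run of letters, and no binding was measured.

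The 10 genes fell into 3 sets by how closely replicates held together. VCP, ERLEC1 and OS9 were steady, with standard deviations (SD) between replicates of 0.21, 0.29 and 0.31 on the deposited log2 scale, where 1 unit is a 2-fold difference. SEL1L, DERL1, DERL2 and EDEM3 lay between 0.43 and 0.48, near the median of 0.49 over the 11327 genes tested. EDEM1 (0.76), EDEM2 (1.09) and SYVN1 (1.26) were the loosest. That order followed read number in part, with 4633 reads over the 30 libraries for VCP and 246 and 271 for EDEM1 and EDEM2. Among genes with a read total within 1.5-fold of its own, however, SYVN1 (572 reads) had a larger SD than 99% of 3040 genes, whose median was 0.64. EDEM2 exceeded 89.3% of the genes of like read number and EDEM1 30.2%, while ERLEC1 was looser than 4.86% of 3026 such genes. Values are a level per unit of a length that the authors' processing assigned, and that length is not the full transcript (60 for EDEM3 against 3220 for OS9), so levels were compared within a gene only.

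The first question was whether loss of any 1 of the 8 genes shifted ERAD transcripts against the other 7 knockouts, a comparison that does not use the uneven HEK28 libraries as a reference. Few did: 1 of 72 tests (9 genes in 8 knockouts) passed, DERL1 in the GABARAP knockout. EDEM1 was too low to be tested. Over all genes tested, the share called was lowest for GABARAPL1 at 0.353%, then 1.04% (LMAN1), 1.39% (CANX), 1.44% (ATG7), 2.67% (GABARAP), 2.9% (CALR), 4.1% (GABARAPL2) and 5.01% (MCFD2), so 1 call in 72 lies within the background. A p under 0.05 before adjustment was seen in 10 of the 72 tests. Over all 11327 genes tested it was seen in 882 (GABARAPL1) to 2105 (MCFD2) per knockout, so it was common among all genes too. The median of the 9 genes ran from -0.13 (ATG7) to 0.14 (GABARAPL1) over the 8 knockouts, and that of all genes from -0.04 to 0.06. These tests, and those that follow, are from limma with two-sided p-values adjusted over all genes tested by the Benjamini-Hochberg method, at a threshold of 0.05.

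DERL1 (ENSG00000136986, chromosome 8, 123013164 to 123042423, minus strand, GRCh38) stood at 3.19, 3.55 and 3.62 in the 3 GABARAP knockout libraries. The other 21 knockout libraries lay between 3.71 (ATG7 replicate 1) and 5.27 (GABARAPL2 replicate 1). The groups did not overlap, although the gap to the lowest of the others was small. Outside this comparison, HEK28 stood at 3.84, 4.56 and 5.00 and the parental line at 3.26, 4.23 and 4.58. Parental replicate 1 thus lay within the GABARAP values. DERL1 fell by 1.09 (SE 0.27, n = 3 against 21), 2.13-fold, with limma adjusted p = 0.0254, from 45 reads in the GABARAP knockout. Leaving out GABARAP replicate 1, 2 or 3 gave -0.96, -1.14 and -1.18 with adjusted p = 0.167, 0.111 and 0.0883. The 29 tested genes that start within 5 Mb of DERL1 had a median difference of -0.15 in this knockout, 18 of them lower, and 1 was called. DERL3, the derlin outside the 10 genes, also fell in the GABARAP knockout, by 1.66 (SE 0.44, adjusted p = 0.0391, 18 reads). DERL2 differed there by -0.34 (SE 0.26, adjusted p = 0.546).

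At the other end of the order for DERL1 stood the GABARAPL2 knockout, at 5.27, 5.12 and 4.86. Against the other 7 it was 0.77 higher (SE 0.27) and did not pass, with adjusted p = 0.110. With precision weights from recovered reads (voom) it passed (0.74, limma adjusted p = 0.000248), where 2945 of all genes were called in place of 464. It also passed with the 8 knockouts fitted alone (0.77, adjusted p = 0.0374), where 1095 genes were called. The direct comparison of the 2 knockouts of related ATG8-family genes did pass: DERL1 in GABARAP against GABARAPL2 differed by -1.63 (SE 0.36, 3.09-fold, adjusted p = 0.00811), and the groups did not overlap. Of all genes tested 6.11% were called in that pair. Between GABARAP and GABARAPL1 (4.65, 4.43 and 5.03) DERL1 differed by -1.25 with adjusted p = 0.167, where 0.415% of all genes were called. Between GABARAPL1 and GABARAPL2, where 1.62% of all genes were called, 0 of the 9 ERAD genes passed limma's test, with 1 at an unadjusted p under 0.05. Such a p was seen for 1514 of all 11327 genes. When the 10 groups were put in order of their mean, neighbouring groups overlapped in their libraries in 9 of 9 pairs for each ERAD gene but OS9, where the parental line and HEK28, the top 2, did not. Of all genes tested 66.7% also overlapped in 9 of 9.

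ERLEC1 (ENSG00000068912, chromosome 2, 53787044 to 53818819, plus strand) was lowest in the MCFD2 knockout, at 5.96, 6.10 and 6.13. It was highest in the LMAN1 knockout, at 6.78, 7.26 and 6.89, and nearly as high in the CALR knockout, at 7.42, 7.02 and 6.49. The 2 subunits of the same cargo receptor thus sat at opposite ends for this lectin, with LMAN1 0.91 above MCFD2 (SE 0.25, 1.88-fold, n = 3 against 3, limma adjusted p = 0.0342) and no overlap. In that pair 5.01% of all genes were called, and ERLEC1 was 1 of 9 ERAD genes. The call ended when LMAN1 replicate 2 or 3, or MCFD2 replicate 1, 2 or 3, was left out (0.77, 0.95, 0.86, 0.93 and 0.95, adjusted p = 0.152, 0.0667, 0.114, 0.063 and 0.0832), and when the 2 groups were fitted alone (adjusted p = 0.117). Against the other 7 knockouts ERLEC1 in MCFD2 differed by -0.60 (SE 0.19, limma adjusted p = 0.0683). That difference passed with a 3-fold stricter filter on low values (adjusted p = 0.0379), where 667 genes were called in place of 567. It also passed with the knockouts fitted alone (adjusted p = 0.0338), where 1082 genes were called.

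ERLEC1 lies on the same chromosome as MCFD2, with 6.89 Mb between their starts. The 17 tested genes within 5 Mb of ERLEC1, a set looked at after its values were seen, had a median of -0.34 in the MCFD2 knockout against the other 7, with 11 of 17 lower and 4 called, where the median of all genes was -0.04. Of the genes called over the whole table in MCFD2 against the other 7, 386 were lower and 181 higher. Between LMAN1 and MCFD2 the median of the 17 was 0.46, with 5 of 17 lower in LMAN1 and 2 called. In each of these comparisons 5.01% of all genes were called. The low level of ERLEC1 in the MCFD2 knockout thus came with a low median of its neighbours, which were not all lower. Their part in the result was not tested.

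SYVN1 (ENSG00000162298, chromosome 11, 65121780 to 65134533, minus strand) had the widest range of the 10, from 1.77 to 7.78. In the GABARAPL2 knockout it stood at 7.04, 6.70 and 7.40 (123, 34 and 30 reads) and in the ATG7 knockout at 7.78, 6.70 and 6.17. LMAN1 gave 5.28, 1.77 and 6.28, the middle one with 0 of 552870 reads, which allows up to 5.43 RPM, and GABARAP gave 4.66, 5.77 and 3.12. CANX held a spread of the same kind, at 7.02, 3.89 and 6.74. The GABARAPL2 knockout differed from the other 7 by 1.46 (SE 0.72, adjusted p = 0.290), ATG7 by 1.27 (adjusted p = 0.493), GABARAP by -1.43 (adjusted p = 0.327) and LMAN1 by -1.52 (adjusted p = 0.397). None of the 4 passed limma's test at this spread. With precision weights from recovered reads (voom), which count the deeper libraries more, GABARAPL2 passed (1.30, adjusted p = 0.003), where those weights called 2945 genes in that comparison in place of 464.

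The SYVN1 level moved with other genes across the 24 knockout libraries. With OS9, Pearson's r was -0.71, and with EDEM2 it was 0.60. These were the extremes of the 45 pairs among the 10 genes, whose median r was 0.15, with 1 pair above 0.5 and 2 below -0.5 (the second being OS9 with EDEM2, -0.52). The libraries share their groups, their depth and their quality, so the correlations are a description. The SYVN1 level also moved with the share of transcripts far below prediction (r = -0.75), and without LMAN1 replicate 2 and GABARAP replicate 3, the 2 libraries farthest from the median of that share, r was -0.40 over 22 libraries. For EDEM2 the same values were -0.47 and -0.42 and for OS9 0.39 and 0.21. With depth r was 0.12 for SYVN1, -0.14 for EDEM2 and -0.01 for OS9. The part of that share in the SYVN1 differences was not tested.

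**Figure D1:**
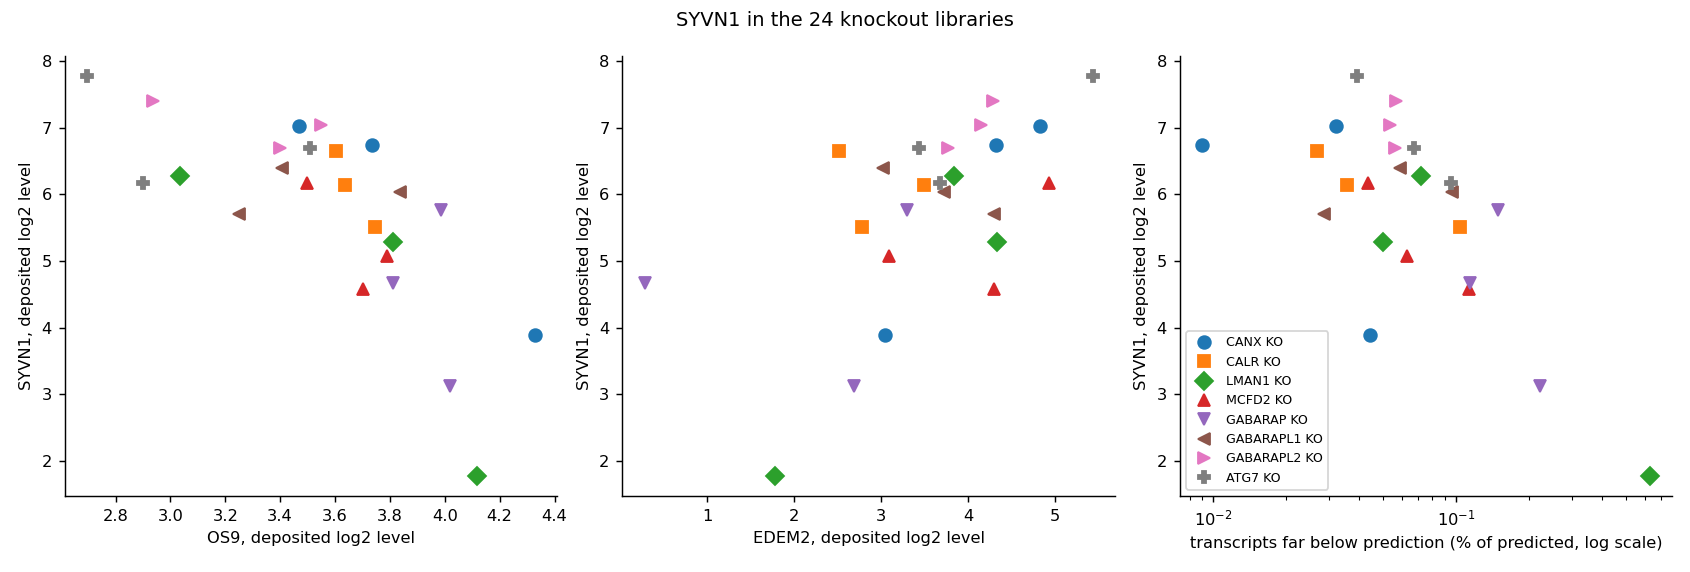
SYVN1 against OS9, against EDEM2 (both deposited log2 levels) and against the share of transcripts far below prediction (%, log axis) in the 24 knockout libraries, 1 point per library and 1 symbol per knockout. SYVN1 was low where OS9 was high (r = -0.71), and the library with 0 reads of SYVN1, LMAN1 replicate 2 at 1.77, had the largest share, 0.630%.

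OS9 (ENSG00000135506, chromosome 12, 57693955 to 57721557, plus strand), the second lectin, was lowest in the ATG7 knockout, at 2.70, 3.51 and 2.90. Its next lowest group was GABARAPL2, at 3.55, 3.40 and 2.94, and the highest knockout group was GABARAP, at 3.81, 3.99 and 4.02. Against the other 7, ATG7 differed by -0.62 (SE 0.21, adjusted p = 0.157). SEL1L (ENSG00000071537, chromosome 14, 81471549 to 81533861, minus strand) was lowest in the same group, with 3.73, 4.96 and 5.04 in ATG7, and 5.83, 5.36 and 5.96 in GABARAP, the highest. The ATG7 difference of SEL1L was -0.72 (SE 0.27, adjusted p = 0.223) and the GABARAP one 0.58 (adjusted p = 0.286). GABARAP and ATG7 thus stood at opposite ends for SEL1L and, the other way round, near opposite ends for its partner SYVN1, although none of these differences passed. The other knockouts did not share that pattern as a set. LMAN1 was low for both genes, with means of 4.80 for SEL1L and 4.44 for SYVN1. Over the 24 knockout libraries Pearson's r between SEL1L and SYVN1 was -0.13.

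VCP (ENSG00000165280, chromosome 9, 35056064 to 35073249, minus strand) moved least. Its 24 knockout libraries lay between 8.06 and 8.67 with a median of 8.40, and the 8 differences from the other knockouts ran from -0.18 (ATG7) to 0.17 (LMAN1) with an SE of 0.14, and adjusted p of 0.664 or more. EDEM3 (ENSG00000116406, chromosome 1, 184690231 to 184754913, minus strand) ran from -0.27 (LMAN1) to 0.32 (GABARAPL2) with an SE of 0.28, and its adjusted p was 0.592 or more. DERL2 (ENSG00000072849, chromosome 17, 5471251 to 5486811, minus strand) was highest among the knockouts in CALR, at 6.13, 6.02 and 5.78, 0.50 above the other 7 (SE 0.26, adjusted p = 0.392). EDEM2 (ENSG00000088298, chromosome 20, 35115357 to 35147364, minus strand) was lowest among the knockouts in GABARAP, at 0.28 (0 reads), 3.30 and 2.68, a difference of -1.68 (SE 0.63, adjusted p = 0.167).

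EDEM1 (ENSG00000134109, chromosome 3, 5187646 to 5219957, plus strand), a textbook target of the unfolded protein response, had 246 reads in all and was left out of the test by the filter. Its libraries were closest together in the 2 highest groups, at 3.95, 3.88 and 3.60 in the CALR knockout and 3.72, 3.89 and 3.65 in the GABARAPL2 knockout. In the ATG7 knockout they stood at 1.01, 2.94 and 0.17, the first and the last with 0 reads. With no filter on low values, CALR differed from the other 7 by 1.06 (SE 0.46, adjusted p = 0.316), GABARAPL2 by 1.00 (adjusted p = 0.285) and ATG7 by -1.72 (adjusted p = 0.0835), so none of the 3 passed. Against HEK28, where EDEM1 had 1 read in all, CALR differed by 2.34 (adjusted p = 0.0152) and GABARAPL2 by 2.29 (adjusted p = 0.0131) with no filter, calls that stand outside the 72 tests below.

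Asked of all 8 knockouts at once (a moderated F test of any difference), 0 of the 9 ERAD genes passed limma's test, with adjusted p of 0.0682 (DERL1), 0.0885 (ERLEC1) and 0.109 (SEL1L) the lowest and 3 at an unadjusted p under 0.05. Of all genes 13.1% were called, and 3200 of 11327 had an unadjusted p under 0.05. HEK28 replicates 1 and 2 enter this test through the shared spread and through the filter on low values, which was set anew without them. With both left out, F was 3.90 for DERL1 and 3.57 for ERLEC1. The voom weights called DERL1, SEL1L and SYVN1, where they called 4531 of all genes in place of 1487. The genes whose 24 knockout values were most like those of DERL1 were RBFA (Pearson's r 0.84), RP11-371A22.1 (0.78) and TSPAN7 (0.78). For ERLEC1 they were RPS3A (0.73), GKAP1 (0.71) and TMEM246 (0.71), and for SEL1L they were WBP11 (0.78), FAM60A (0.75) and SIK2 (0.75). For SYVN1, added after its values were seen, they were MAP2K1 (0.86), RPS7P1 (0.85) and EXOSC3 (0.84).

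Against HEK28, the line the knockouts were made from, 6 of 72 tests passed over 5 genes. All 8 comparisons use the same 3 HEK28 libraries. The share of all genes called was 5.43% (LMAN1), 5.65% (GABARAP), 9.81% (GABARAPL1), 12.5% (ATG7), 17.9% (MCFD2), 18.2% (CALR), 18.8% (CANX) and 26.1% (GABARAPL2), and 6 calls in 72 lie within that range. The median of all genes lay 0.10 to 0.17 above HEK28 in the 8 knockouts, and the differences below are to be read against that shift.

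The largest of these differences rested on a few reads. SYVN1 stood in HEK28 at 3.59 and 2.26 with 0 reads each and at 5.51 with 3 reads, against 7.04, 6.70 and 7.40 in GABARAPL2 and 7.78, 6.70 and 6.17 in ATG7. The fitted differences were 3.26 (SE 0.95, adjusted p = 0.0156) and 3.10 (SE 0.95, adjusted p = 0.0371). As a ratio of RPM, 187 reads against 3 made SYVN1 8.88 times higher in GABARAPL2, with a 95% exact interval of 2.99 to 43.5, and 52 against 3 made it 7.92 times higher in ATG7 (2.56 to 39.7), both for counting error only. EDEM2 had 1 read in HEK28 and 72 in GABARAPL2, a ratio of 10.3 (1.78 to 411) and a fitted difference of 2.27 (SE 0.83, adjusted p = 0.0463). Leaving out HEK28 replicate 1 or 2 ended each of these 3 calls, as did leaving out GABARAPL2 replicate 3 for SYVN1 in GABARAPL2 (adjusted p up to 0.101), any ATG7 library for SYVN1 in ATG7 (up to 0.177) and any of 17 libraries for EDEM2 (up to 0.207), of 27 whose removal left EDEM2 in the test. Without both HEK28 replicates 1 and 2, which leaves HEK28 with 1 library that is assumed to vary like the other groups, the 3 differences were 1.54, 1.37 and 1.35 with adjusted p = 0.635, 0.687 and 0.647.

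EDEM1 (1 read), EDEM2 (1 read) and SYVN1 (3 reads) were all sparse in HEK28. Over the 24 knockout libraries together they had 241, 265 and 550 reads, which gives ratios to HEK28 of 7.45 (1.32 to 295), 8.19 (1.46 to 325) and 5.67 (1.93 to 27.6). The same ratios to the parental line were 2.42 (0.933 to 8.95), 2.13 (0.901 to 6.61) and 1.16 (0.737 to 1.95). These intervals cover counting error only, and replicates of all 3 genes spread widely. All 3 genes had 0 reads in HEK28 replicates 1 and 2, the libraries with the largest shares of missing transcripts.

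The steadier genes gave smaller differences from HEK28. DERL2 was 0.99 higher in the CALR knockout (6.13, 6.02 and 5.78) than in HEK28 (4.76, 5.76 and 4.41), with SE 0.35 and adjusted p = 0.0475. The groups did not overlap, with 5.78 the lowest of CALR and 5.76 the highest of HEK28. Leaving out any of 17 of the 30 libraries, including each library of CALR, GABARAPL1 and GABARAPL2, raised its adjusted p above the threshold (up to 0.150). The call was also lost with the replicate number as a block (adjusted p = 0.0538), with no filter (0.0712), under quantile normalization (0.0814), with voom weights (0.148) and with the 2 groups fitted alone (0.258). Set against HEK28 replicate 3 by itself, at 4.41 from 6 reads, the difference was 1.56 with adjusted p = 0.0394. ERLEC1 fell by 0.76 in the MCFD2 knockout (SE 0.25, adjusted p = 0.0376) from HEK28 (6.67, 7.27 and 6.53), with no overlap, and the difference was -0.46 with adjusted p = 0.464 without the 2 HEK28 libraries. OS9 fell by 0.92 in the ATG7 knockout (SE 0.28, adjusted p = 0.0332) from HEK28 (3.80, 4.01 and 4.06), with no overlap, and the difference was -1.03 with adjusted p = 0.209 without them. Single libraries whose removal ended the ERLEC1 call were the 3 of MCFD2 and HEK28 replicates 1 and 2 (adjusted p up to 0.196), and for OS9 they were ATG7 replicates 1 and 3 and HEK28 replicates 1 and 2 (up to 0.129).

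The knockouts together and HEK28 were each compared with the parental line, and 2 of the 9 ERAD genes were called in each comparison. The shares of all genes called there were 37.3% and 31.9%. Across the 8 knockouts together, VCP was higher and OS9 lower than in the parental line, 2 calls of 9 where 37.3% of all genes were called. VCP stood at 7.91, 8.34 and 7.48 in the parental line and at 8.06 to 8.67 (median 8.40) in the knockouts, a difference of 0.47 (SE 0.14, adjusted p = 0.00821), with parental replicate 2 inside the knockout range. Without parental replicate 3 it was 0.26 with adjusted p = 0.190, and under quantile normalization 0.33 with adjusted p = 0.0579. OS9 stood at 4.18, 4.23 and 4.34 in the parental line and at 2.70 to 4.33 (median 3.62) in the knockouts, a difference of -0.67 (SE 0.21, adjusted p = 0.0132). Of the 24 knockout libraries, CANX replicate 2 at 4.33 lay within the parental values, and without parental replicate 3 the difference was -0.63 with adjusted p = 0.0653.

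HEK28 against the parental line gave 2 other calls of 9, DERL2 and ERLEC1, where 31.9% of all genes were called. DERL2 fell by 1.05 in HEK28 (SE 0.35, adjusted p = 0.0229), from 5.46, 6.46 and 6.17 in the parental line to 4.76, 5.76 and 4.41, with overlap. The difference was -1.62 with the 1 HEK28 library of 6 reads, replicate 3, as the only one of its group (adjusted p = 0.0109), and leaving out HEK28 replicate 1 or 3 or parental replicate 2 or 3 gave -0.94, -0.77, -0.83 and -0.98 with adjusted p = 0.0769, 0.103, 0.111 and 0.066. ERLEC1 was 0.68 higher in HEK28 (SE 0.25, adjusted p = 0.0401) than in the parental line (6.45, 5.82 and 6.16), without overlap. That call was lost without HEK28 replicate 2 or parental replicate 2 or 3 (0.46, 0.52 and 0.69, adjusted p = 0.209, 0.173 and 0.0733), and without HEK28 replicates 1 and 2 the difference was 0.39 (adjusted p = 0.446). SYVN1 (-2.37, adjusted p = 0.0608) and VCP (0.47, adjusted p = 0.0514) did not pass. In these bulk libraries fewer cells that express a gene and less RNA per cell cannot be told apart.

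The knockouts of the 2 lectin chaperones were compared directly. Between CALR and CANX, 0 of the 9 genes passed limma's test and 0 had an unadjusted p under 0.05. Of all genes 1.26% were called, and 1287 of 11327 had such an unadjusted p. The differences ran from -1.14 (EDEM2, SE 0.83) to 0.36 (DERL2, SE 0.35). SYVN1 differed by 0.21 with an SE of 0.95, and VCP by 0.15 with an SE of 0.18, so the test could resolve far less for SYVN1 than for VCP.

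A wider list of ERAD genes (other ER ligases and their enzymes, partners of the derlins and of VCP, carriers to the proteasome and enzymes of the ER lumen) held 66 names with older synonyms, of which 60 were in the table and 55 were tested. Against the other 7 knockouts, 0 to 2 of the 55 passed per knockout, beside the 0.353% to 5.01% of all genes given above. UBE2G2, a ubiquitin-conjugating enzyme of ERAD, fell by 1.21 in the CANX knockout (SE 0.17, adjusted p = 0.000167), without overlap. ATXN3, a deubiquitinase that binds VCP, fell by 0.59 in the GABARAPL2 knockout (adjusted p = 0.0363). SGTA fell by 1.00 in CALR (adjusted p = 0.0187), and BAG6, its partner in holding membrane proteins in the cytosol, fell by 0.62 in MCFD2 (adjusted p = 0.0295), as did RAD23B by 0.33 (adjusted p = 0.0394). DERL3 fell in GABARAP, as given above. LMAN1, GABARAPL1 and ATG7 had none. In the test of any difference among the 8 knockouts 4 of the 55 passed, UBE2G2, SGTA and BAG6 among them, beside 13.1% of all genes.

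Against the parental line, over the 8 knockouts, 23 of 55 of the wider list passed, 17 higher and 6 lower, and in HEK28 16 of 55, 11 higher and 5 lower, beside the 37.3% and 31.9% of all genes. UBAC2, a membrane protein of the ERAD ligase complexes, was 2.20 higher in the knockouts (adjusted p = 7.46e-06) and 1.33 higher in HEK28 (adjusted p = 0.0188). YOD1, a deubiquitinase that works with VCP, fell by 1.50 in the knockouts (adjusted p = 0.00274) and fell by 2.17 in HEK28 (adjusted p = 0.00174). UBXN1, a VCP cofactor, was 1.91 higher in HEK28 (adjusted p = 5.74e-07). These 2 comparisons share the parental libraries.

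The unfolded protein response, the ER stress program that induces chaperones and several ERAD genes, was set beside these through a list of 27 genes, 26 of them tested. In the CALR knockout 5 of 15 ER chaperone targets rose against the other 7 knockouts, among them HSPA5 (BiP, 0.90), PDIA4 (0.85) and PDIA3 (0.71), with a median of 0.41 over the 15, where 2.9% of all genes were called. In the same knockout 3 of 7 genes listed under its PERK arm fell (CHAC1 by 2.32, ASNS by 1.58 and ATF4 by 0.78). That name is of the list, and the activity of PERK was not measured. In the CANX knockout 0 of the 15 passed, where 1.39% of all genes were called. There 4 of the 7 genes listed under the PERK arm rose against the other 7 knockouts (CHAC1 by 3.04, ASNS by 1.89, SESN2 by 0.92 and ATF4 by 0.69). Against HEK28 2 of the 7 passed in CANX (CHAC1 by 3.01 and ASNS by 1.78), where 18.8% of all genes were called. The mean of ATF4 was 9.98 in CANX and 9.91 in HEK28. A fall of ATF4 was not particular to CALR, since it also fell by 0.80 in MCFD2 against the other 7. In neither knockout did any of the 9 tested ERAD genes pass against the other 7. The differences of ERAD genes in CALR ran from -0.71 (EDEM2) to 0.50 (DERL2), with ERLEC1 at 0.44 (adjusted p = 0.251), and those in CANX from -0.15 (EDEM3) to 0.58 (EDEM2).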

How the data were processed

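The table deposited by the authors holds log2 values for 16975 genes in 30 samples. Per the submitters' processing notes FastQC, cutadapt, TopHat2 and Bowtie were used with the build hg38. Their versions, the counter of reads and the scaling were not given in the sources used here. From the steps of the values, each is the log2 of reads plus 0.5 divided by a length and a library size, and reads were resolved for 16858 genes, the 10 ERAD genes among them. All 30 samples, grouped by title, entered 1 fit in limma 3.58.1 (R 4.3.3) with a mean-variance trend, robust moderation and no further pseudocount. Genes with at least 3 libraries at 17.9 RPM or more (10 reads at the median depth) and 15 reads in all were tested, 11327 in number, 9 ERAD genes among them. Groups were compared by 23 contrasts and 1 F test. The fit was run on simulated counts with the same extra variation for every gene, unlike these data, and no conclusion is drawn from that run. A count model was the plan only for a table of counts.

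The ERAD genes, the lists and the tests were chosen with earlier results of these data known. Named by rule were all 10 ERAD genes, up to 6 genes per comparison from each wider list, and the 3 nearest genes in pattern. Positions are from GENCODE 29 (GRCh38). Reads shared with paralogs, pseudogenes or overlapping genes cannot be told apart. Replicates differed beyond counting noise (lowest chi-square per degree of freedom 1.51). Alternatives were quantile normalization, voom weights, other filters, a pseudocount of 1, fits of the compared groups alone, a replicate block, and left-out libraries. Results of some genes of the wider list are not reported here.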

Additional observations from a re-analysis of the deposited data

Results flagged for a closer look

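For 2 results, knockouts of related genes differed in a direct test of that difference. ERLEC1 was 0.91 higher in the LMAN1 than in the MCFD2 knockout (adjusted p = 0.0342, limma), with no overlap of the libraries, where 5.01% of all genes were called. That call ended when any 1 of 5 libraries of these groups was left out and when the groups were fitted alone (adjusted p = 0.117). DERL1 differed by -1.63 between the GABARAP and the GABARAPL2 knockout (adjusted p = 0.00811, limma), also with no overlap, where 6.11% of all genes were called, and that call held when any 1 of the 30 libraries was left out (adjusted p from 0.00439 to 0.0458).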

How the results depend on the processing

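Counts are of ERAD calls. For each knockout against the other 7 (1 of 72), voom weights gave 4, the 3-fold stricter filter 2, the compared groups alone 3, no HEK28 replicates 1 and 2 gave 2, and leaving out 1 library 0 to 2. Against HEK28 (6 of 72) the counts were 1 with voom weights, 3 with no filter (SYVN1 in GABARAPL2, and EDEM1, outside the 72, in CALR and GABARAPL2), 0 in the compared groups alone, 1 without the 2 HEK28 libraries, and 0 (without HEK28 replicate 1) to 11 (without HEK28 replicate 3) over left-out libraries. Quantile normalization and the stricter filter also called OS9 in GABARAPL2 against HEK28 (-0.79 and -0.66, limma adjusted p = 0.0414 and 0.0456). In that comparison they called 2898 and 2402 of all genes in place of 2962. Neither setting called EDEM2 there, and the stricter filter did not call SYVN1. For all knockouts against the parental line (2 of 9) quantile normalization gave 1 and left-out libraries 0 to 3. Voom weights (with DERL2), the stricter filter and the compared groups alone (both with ERLEC1) gave 3 each. Over all genes these settings gave 3757, 3225 and 4903 in place of 4225. For HEK28 against the parental line (2 of 9) the counts were 0 with voom weights, 1 with no filter, 0 in the compared groups alone and 1 to 3 over left-out libraries. The stricter filter gave 3, with VCP added, where 2830 of all genes were called in place of 3609. For the direct pairs (2 of 45) voom weights gave 6, SEL1L and SYVN1 between GABARAP and GABARAPL2 among them (2779 of all genes there in place of 692), and left-out libraries 1 to 2. The GABARAP and GABARAPL2 knockouts fitted alone also gave SEL1L (0.87, limma adjusted p = 0.0465) and SYVN1 (-2.53, adjusted p = 0.0281), where 2067 of all genes were called. For any difference among the knockouts (0 of 9) voom weights gave 3, the stricter filter 2, the knockouts alone 2, no HEK28 replicates 1 and 2 gave 2, and left-out libraries 0 to 1. Over all genes that test gave 1487, and then 4531, 1617, 3010 and 2614. The other counts over all genes moved as well. They were 40 to 567 per knockout against the other 7, and 185 to 2945 with voom weights. Against HEK28 they were 615 to 2962, 0 to 21 in the compared groups alone and 149 to 641 without HEK28 replicates 1 and 2. The cause of these moves was not tested. The 17 ERAD differences recomputed under the alternatives kept their sign in each.

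Replicate numbers did not pair the samples. The median correlation of deviations was -0.0057 over 135 same-numbered pairs and -0.0005 over the others. The replicate block gave 8 calls against HEK28 in place of 6, without DERL2 in CALR and with EDEM2 in CANX, MCFD2 and ATG7 (adjusted p = 0.0399, 0.0375 and 0.0421), and the same numbers of calls elsewhere. EDEM1, EDEM2 and SYVN1 had 246, 271 and 572 reads in all, and the part of depth in their spread was not tested.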
